A study of Rattus norvegicus with 5 samples.

Results

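The genes described here encode receptors for the constant part of immunoglobulin G and relatives of such receptors: Fcgr1a, Fcgr2a, Fcgr2b, Fcgr3a, Fcer1g and Fcrl2. They were picked by symbol from the deposited count table, with earlier results of the comparison of CCI with SHAM in view, and all 6 were found among its 17321 rows. RNA came from lumbar (L4-L6) dorsal horn of Sprague Dawley rats, 9 days after CCI surgery (3 libraries) or SHAM surgery (2 libraries). CCI commonly stands for chronic constriction injury, in which a peripheral nerve is loosely tied to model neuropathic pain; SHAM animals had surgery without that injury. The labels name no other treatment, allele, sex or age, and do not say whether a library is 1 animal or a pool, so the spread between libraries may be partly technical.

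Fc gamma receptors bind antibody-coated material and pass that signal into phagocytes. Activating receptors such as the one encoded by Fcgr1a work with the common gamma chain, the product of Fcer1g, whose tail carries an immunoreceptor tyrosine-based activation motif (ITAM) that Src-family kinases phosphorylate and Syk then binds. Fcgr2b is the inhibitory receptor: its own tail carries an inhibitory motif (ITIM) that recruits phosphatases such as the one encoded by Inpp5d. In the nervous system these genes are known mainly from microglia and other macrophages, and Fcrl2, which RefSeq also lists as Fcrls, is the rat gene that matches a marker widely used for mouse microglia.

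Rat symbols in this family are easily confused. In the RefSeq gene table of the assembly GRCr8, Fcgr2a carries the synonyms Fcgr3 and Fcgr3a, and Fcgr3a carries the synonyms CD16-2 and Fcgr4. The same table gives the row LOC498276 of the count table the symbol Fcgr2al1 and places Fcgr2b, Fcgr3a, Fcgr2a and Fcgr2al1 in that order with no protein-coding gene between them, while 8 protein-coding genes lie between Fcgr2al1 and Fcer1g. Fcgr1a and Fcrl2 lie on another chromosome. RefSeq promoter windows of GRCr8 (250 bases before to 50 after a start) matched Fcgr3a and Fcgr2a. No window was found for the other genes searched, so these genes were not chosen by their difference between CCI and SHAM. Among the Fc gamma receptors they had the largest and the smallest difference. Capitals mark GAGGAA or its reverse complement TTCCTC, the core of the PU-box that the myeloid factor PU.1 is known to bind.
Fcgr3a, chr13:85782386-85782685, plus strand: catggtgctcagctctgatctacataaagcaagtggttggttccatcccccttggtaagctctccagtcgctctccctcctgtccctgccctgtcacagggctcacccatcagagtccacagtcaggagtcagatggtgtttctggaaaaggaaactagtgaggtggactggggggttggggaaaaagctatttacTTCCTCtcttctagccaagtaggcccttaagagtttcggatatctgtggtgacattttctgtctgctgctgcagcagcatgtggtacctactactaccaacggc
Fcgr2a, chr13:85828636-85828935, minus strand: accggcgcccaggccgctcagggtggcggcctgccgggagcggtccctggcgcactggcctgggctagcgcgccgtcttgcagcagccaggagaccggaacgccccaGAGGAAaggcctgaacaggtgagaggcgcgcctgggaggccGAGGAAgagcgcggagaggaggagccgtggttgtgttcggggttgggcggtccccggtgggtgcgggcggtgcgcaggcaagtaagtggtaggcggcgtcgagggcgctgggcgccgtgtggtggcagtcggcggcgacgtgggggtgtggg
The Fcgr3a window held 1 match, on the reverse strand, starting 54 bases before the start site, and the Fcgr2a window held 2, starting 143 and 102 bases before it. A second Fcgr2a window held none. GAGGAA was searched on both strands and occurred in 27.6% of the 33469 promoter windows, so a match is common. The longer GAGGAAGT (reverse complement ACTTCCTC), which contains the first, occurred in 2.42% of windows, in that of Fcgr3a and in neither of Fcgr2a.

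The libraries held 20053353 to 23673198 estimated counts each. Ribosomal RNA rows took up 15.98% of the total in CCI 3, against 2.18% to 2.71% elsewhere. All 13 dorsal horn neuron markers in the table had counts, with summed levels of 1052 to 1223 CPM (counts scaled to library size) in CCI and 939 to 1084 CPM in SHAM, while motor neuron markers summed to 130 to 378 CPM and 574 to 832 CPM. Schwann cell markers summed to 103, 316 and 714 CPM in CCI 1, CCI 2 and CCI 3, against 116 and 126 CPM in SHAM. Fibroblast markers stood at 154, 834 and 686 CPM against 160 and 197 CPM. CCI 2 and CCI 3 thus stood apart from the other 3 libraries in these 2 lists, and results are given with and without them. Motor neuron markers were below SHAM in CCI 1 too, at 378 CPM. Of 7 tested, 4 were called lower in CCI and none higher (rule given below), where 0.26% of all tested genes were called lower. Leaving out CCI 2 and CCI 3 does not remove this difference, and its part in the results was not tested.

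All 6 genes were higher in CCI, with no overlap between the groups. The differences ran from 2.26-fold for Fcgr2a to 8.80-fold for Fcrl2, with a median of 2.40 on the log2 scale, where the median of all 13478 tested genes was 0.01. Every CCI library lay above both SHAM libraries for 18.6% of tested genes. By edgeR's quasi-likelihood test over all genes, 5 of the 6 were called higher in CCI (Benjamini-Hochberg adjusted p no higher than 0.05 with a change of 1.5-fold or more) and none lower, where 2.59% of all tested genes were called higher and 0.26% lower. Fcgr2a was not called. Because the genes were chosen with this contrast known, these counts are a description and carry no test here. In bulk tissue, more cells of a type and more RNA per cell cannot be told apart.

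**Figure D1:**
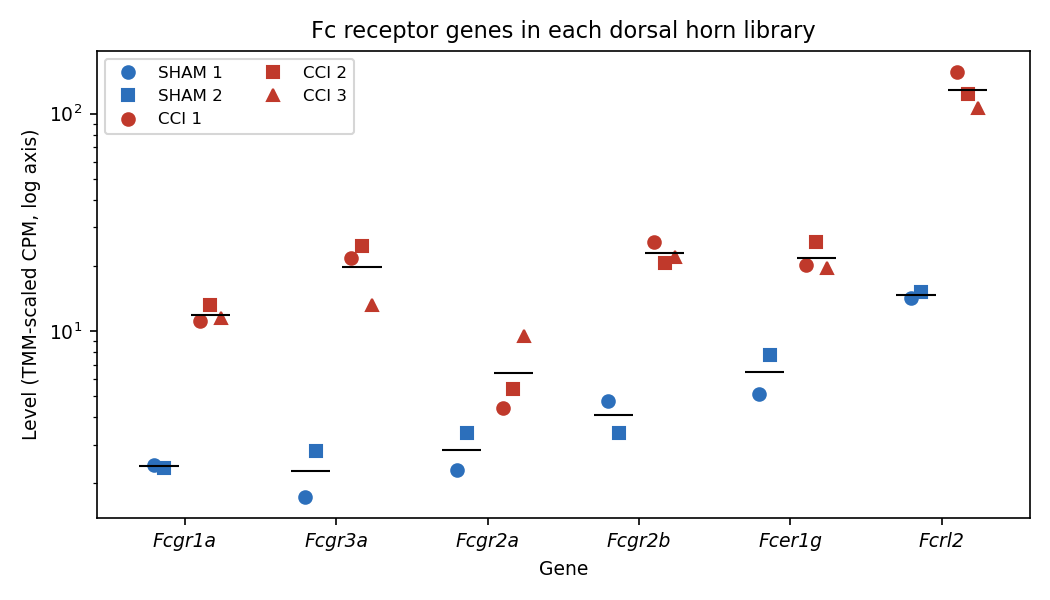
Level of each gene in TMM-scaled CPM on a log axis, 1 point per library (blue SHAM, red CCI; the shape gives the library number), with black bars at the group means. For each of the 6 genes the 3 CCI points sit above the 2 SHAM points; the gap is narrowest for Fcgr2a, where CCI 1 is at 4.41 CPM and SHAM 2 at 3.40 CPM.

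Fcgr1a encodes the high-affinity receptor for IgG. It stood at 11.1, 13.1 and 11.5 CPM in CCI 1, CCI 2 and CCI 3 and at 2.41 and 2.35 CPM in SHAM 1 and SHAM 2, from 239, 331, 216, 53 and 47 counts in the same order. The libraries of each group lay close together and the groups far apart. The group levels were 11.9 ± 1.10 CPM (SD, n = 3) and 2.38 ± 0.0430 CPM (SD, n = 2), a log2 fold change of 2.32 (SE 0.19), or 4.99-fold.

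Fcgr3a, whose product is a receptor for IgG of the CD16 type, had the largest difference among the Fc gamma receptors. Its level was 21.6, 24.5 and 13.2 CPM in CCI 1 to 3, against 1.73 and 2.80 CPM in SHAM, from 467, 617, 249, 38 and 56 counts. CCI 3 was the lowest CCI library by a wide margin, yet lay well above SHAM. The log2 fold change was 3.13 (SE 0.35), or 8.78-fold, from 19.8 ± 5.87 CPM (SD, n = 3) after CCI against 2.26 ± 0.757 CPM (SD, n = 2) after SHAM. Without SHAM 1 the log2 fold change was 2.82 and without SHAM 2 it was 3.51, and Fcgr3a was not called in either case.

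Fcgr2a differed least. Its level was 4.41, 5.38 and 9.43 CPM in CCI 1 to 3, against 2.29 and 3.40 CPM in SHAM, from 95.2, 136, 178, 50.4 and 68.0 estimated counts. CCI 3 was the highest library, the reverse of its place for Fcgr3a, and CCI 1 was little above SHAM 2. The log2 fold change was 1.17 (SE 0.37), or 2.26-fold, with 6.41 ± 2.66 CPM (SD, n = 3) after CCI against 2.84 ± 0.783 CPM (SD, n = 2) after SHAM. In the fit of CCI 1 with SHAM alone the value was 0.63, and without CCI 3 it was 0.79. Fcgr2a was called higher only when libraries were scaled by their size alone. Schwann cell markers (above) and border macrophage markers were, like Fcgr2a, highest in CCI 3 and lowest among the CCI libraries in CCI 1. Border macrophage markers summed to 74.9, 106 and 132 CPM in CCI 1 to 3, against 82.5 and 79.2 CPM in SHAM. Siglec1 gave the largest part of that sum, at 51.9, 61.4 and 75.6 CPM in CCI 1 to 3 and 55.5 and 49.1 CPM in SHAM. Siglec1 and Lyve1, another of these markers, had fractional counts in all 5 libraries. The part of either marker list in the Fcgr2a result was not tested.

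The Fcgr2a row also shared reads with its neighbour. Its counts were fractional in all 5 libraries, as were those of LOC498276, at 168, 250.4, 217, 119 and 127 counts in CCI 1 to 3 and SHAM 1 and 2. In CCI 1, CCI 2 and both SHAM libraries the 2 rows added up to whole numbers (within 0.001): 263, 386, 169 and 195 counts. In CCI 3 they did so only with the row Fcgr2b, which was fractional in that library alone (413.659 counts), for a sum of 808. Fcgr2a held 36.2%, 35.1% and 45.1% of the pair's counts in CCI 1 to 3 and 29.8% and 34.9% in SHAM. Its own value is therefore uncertain to the extent that kallisto, which shares ambiguous reads out by estimate, divided them. Summed, Fcgr2a and LOC498276 stood at 12.2, 15.3 and 20.9 CPM in CCI, against 7.68 and 9.74 CPM in SHAM. The log2 fold change of this sum was 0.89 (SE 0.24) and it was not called. The sum did not overlap between the groups and again was highest in CCI 3.

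**Figure D2:**
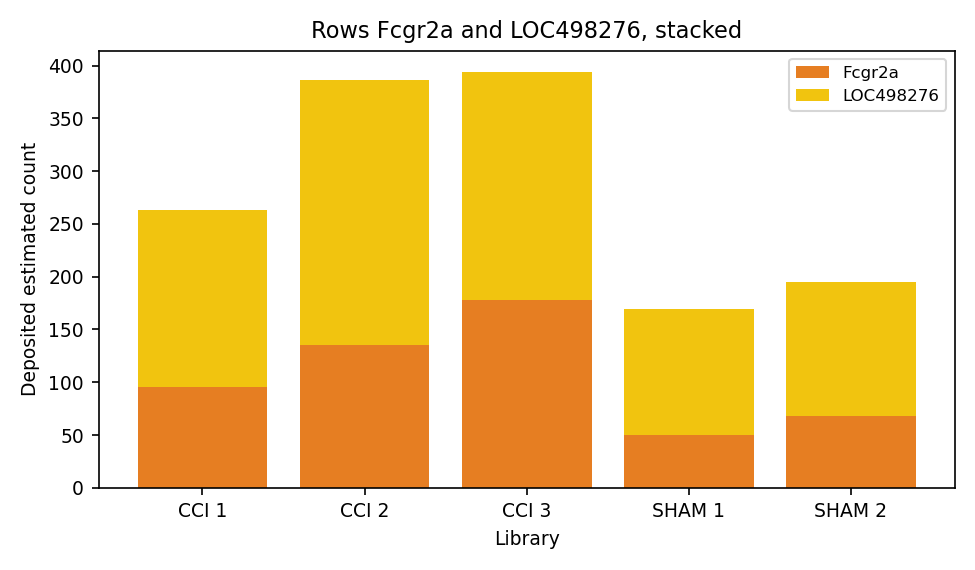
Deposited estimated counts of the rows Fcgr2a (orange) and LOC498276 (yellow), stacked, by library. The stacked height is 263, 386 and 394.341 counts in CCI 1 to 3 and 169 and 195 counts in SHAM 1 and 2, and LOC498276 is the larger part in each.

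Fcgr2b, the inhibitory receptor gene, stood at 25.7, 20.6 and 21.9 CPM in CCI 1 to 3, against 4.77 and 3.40 CPM in SHAM, from 556, 520, 414, 105 and 68 counts. The lowest CCI library was more than 4 times the highest SHAM library. Its log2 fold change was 2.47 (SE 0.19), or 5.55-fold, from 22.8 ± 2.64 CPM (SD, n = 3) and 4.09 ± 0.973 CPM (SD, n = 2). Fractional counts touched Fcgr2b in CCI 3 alone. Fcgr2a, Fcgr2b, Fcgr3a and LOC498276 summed to 1 feature before the fit had a log2 fold change of 1.96 (SE 0.12), or 3.90-fold, and this sum does not depend on how reads were divided among the 4 rows.

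Fcer1g, the gamma chain gene, stood at 20.2, 25.7 and 19.4 CPM in CCI 1 to 3, against 5.14 and 7.74 CPM in SHAM, from 436, 647, 366, 113 and 155 counts. Its log2 fold change was 1.76 (SE 0.22), or 3.39-fold, from 21.8 ± 3.42 CPM (SD, n = 3) and 6.44 ± 1.84 CPM (SD, n = 2). SHAM 2 was the higher of the SHAM libraries for Fcer1g, Fcgr3a, Fcgr2a and Fcrl2, and the lower for Fcgr1a and Fcgr2b. Without SHAM 1 the Fcer1g value was 1.49 and it was not called.

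Fcrl2 gave the most counts of the 6 genes. It stood at 155.5, 124 and 106 CPM in CCI 1 to 3, against 14.1 and 15.1 CPM in SHAM, from 3360, 3115, 2007, 311 and 302 counts. The SHAM libraries lay within 1 CPM of each other, and CCI 1 was the highest CCI library. The log2 fold change was 3.14 (SE 0.18), or 8.80-fold, from 129 ± 24.9 CPM (SD, n = 3) and 14.6 ± 0.674 CPM (SD, n = 2). Fcrl2 ranked 87 and Fcgr3a 88 of 13478 genes by log2 fold change, ahead of Fcgr2b at 142, Fcgr1a at 164, Fcer1g at 283 and Fcgr2a at 571.

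The CCI libraries were not high or low for all genes at once. Against the SHAM mean on the log2 CPM scale, CCI 1 showed the largest difference of the 3 CCI libraries for Fcgr2b (2.65) and Fcrl2 (3.40), CCI 2 for Fcgr1a (2.42), Fcgr3a (3.42) and Fcer1g (2.01), and CCI 3 for Fcgr2a (1.73). CCI 3 showed the smallest for Fcgr3a (2.54), Fcer1g (1.61) and Fcrl2 (2.86). With CCI 2 and CCI 3 both left out, which leaves the library whose Schwann cell and fibroblast marker levels lay near those of SHAM, the log2 fold changes were 2.20 for Fcgr1a, 3.25 for Fcgr3a, 2.64 for Fcgr2b, 1.64 for Fcer1g and 3.40 for Fcrl2, and these 5 were again called. That fit has 1 CCI library, assumed to vary like the SHAM libraries, so its calls rest on the spread of the 2 SHAM libraries alone; it called 2.73% of all tested genes higher.

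Levels of different genes can be compared only per transcript length, here in the deposited TPM table after its TMM scaling. In CCI, Fcrl2 was the highest at 74.0 ± 13.8 (SD, n = 3) on that scale, followed by Fcer1g at 59.5 ± 11.1, Fcgr3a at 24.4 ± 7.37, Fcgr2b at 22.5 ± 2.39, Fcgr1a at 13.4 ± 1.40 and Fcgr2a at 6.28 ± 2.62. Fcrl2 and Fcer1g overlapped between libraries, as did Fcgr3a and Fcgr2b; the other neighbours in this order did not. In SHAM, Fcer1g came first at 17.25 ± 4.45 (SD, n = 2), then Fcrl2 at 8.27 ± 0.340. Fcgr2b at 3.97 ± 0.984, Fcgr3a at 2.74 ± 0.884, Fcgr2a at 2.73 ± 0.727 and Fcgr1a at 2.64 ± 0.0785 followed; each overlapped with its neighbour in this order, and both Fcgr2b values lay above those of Fcgr2a and Fcgr1a. Fcrl2 was above Fcer1g in CCI 1 and CCI 3 and below it in CCI 2 and both SHAM libraries.

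Fcgr3a and Fcgr1a made up more, and LOC498276 and Fcgr2a less, of the summed Fc gamma receptor level in each CCI library than in either SHAM library. Summed per length over Fcgr1a, Fcgr2a, Fcgr2b, Fcgr3a and LOC498276, the level was 75.7, 81.4 and 71.3 in CCI 1 to 3, against 16.9 and 18.5 in SHAM. Fcgr3a made up 34.8%, 37.6% and 22.8% of that sum in CCI and 12.5% and 18.2% in SHAM. LOC498276 made up 9.93%, 12.1% and 15.7% in CCI, against 30.8% and 32.7% in SHAM. Fcgr1a made up 16.3%, 18.5% and 18.1% in CCI, against 15.95% and 13.96% in SHAM. Fcgr2a made up 5.65%, 6.55% and 12.96% in CCI, against 13.1% and 17.5% in SHAM, and CCI 3 was close to SHAM 1. The inhibitory Fcgr2b made up 33.3%, 25.3% and 30.4% in CCI, against 27.6% and 17.7% in SHAM, and these overlapped. The other 4 rows together were 2.01, 2.95 and 2.29 times the level of Fcgr2b in CCI and 2.62 and 4.66 times in SHAM, again with overlap. Fcer1g was 1.07, 1.19 and 1.05 times the level of those 4 rows in CCI and 1.15 and 1.34 times in SHAM.

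**Figure D3:**
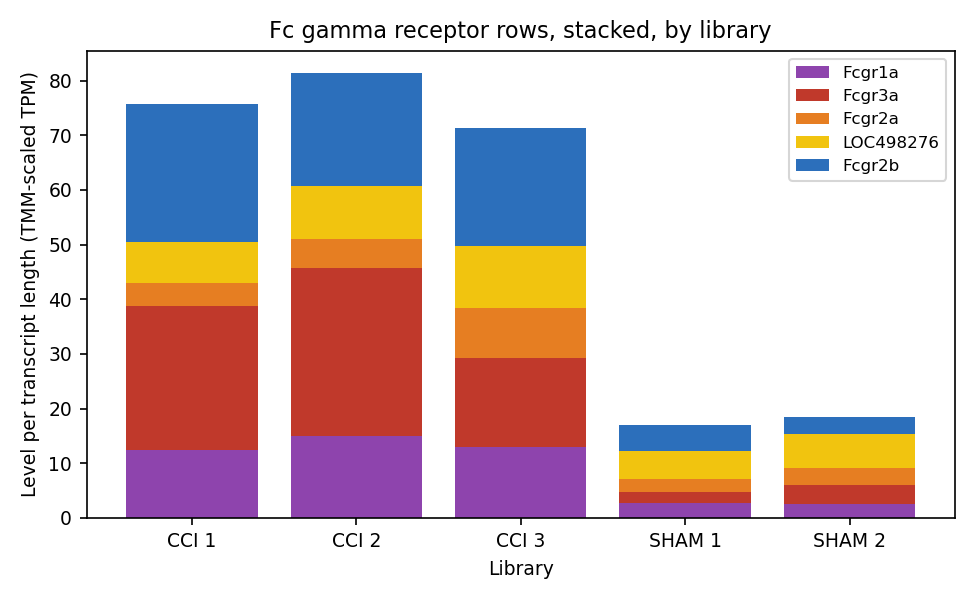
Deposited level per transcript length (TMM-scaled TPM) of 5 Fc gamma receptor rows, stacked, for each library. The stacks reach 71.3 to 81.4 in CCI and 16.9 to 18.5 in SHAM, and the Fcgr3a part (red) is 22.8% to 37.6% of the stack in CCI and 12.5% to 18.2% in SHAM.

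Microglial markers were higher in CCI too. Of the 13 microglial markers tested, 8 were called higher, none lower, by edgeR's quasi-likelihood test (11 higher and none lower at an unadjusted p under 0.05; 9 higher and none lower by DESeq2), with a median log2 fold change of 0.997 and a range of 0.23 for Tmem119 to 2.36 for C1qa. Of all tested genes 2.59% were called higher by edgeR's quasi-likelihood test, and their median log2 fold change was 0.01. The summed level of the 13 markers was 1033 to 1128 CPM in CCI and 404 to 450 CPM in SHAM. Set against the mean log2 CPM of these 13 markers in the same library, Fcrl2 was 1.99 higher in CCI than in SHAM, Fcgr3a 1.95, Fcgr2b 1.35, Fcgr1a 1.16 and Fcer1g 0.64. On this scale the groups did not overlap for any of these 5, but the share of all tested genes without overlap was not computed. Fcgr2a, at -0.01, did overlap: it stood at -3.17, -3.13 and -2.21 in CCI 1 to 3, against -2.98 and -2.67 in SHAM. The values depend on which markers enter the mean. Without SHAM 1 and without SHAM 2, 4 and 5 of the markers were called. The summed levels of other glial markers did not overlap between the groups either: 6 astrocyte markers summed to 6966 to 8572 CPM in CCI and 5015 to 5111 CPM in SHAM, with 1 of them called higher (Gfap), a call lost when SHAM 1 or SHAM 2 was left out. Gfap alone gave 3493 to 5110 CPM of the astrocyte sum in CCI and 1982 to 2100 CPM in SHAM. At an unadjusted p under 0.05 in edgeR, 2 astrocyte markers were higher and 1 lower. Aldh1l1 (log2 fold change -0.43) and Slc1a2 (-0.09) went the other way from Gfap. The 6 oligodendrocyte markers summed to 26140 to 31605 CPM in CCI and 36732 to 37366 CPM in SHAM, with 0 called by edgeR or DESeq2 and 6 lower at an unadjusted p under 0.05. Their part in the results for the Fc receptor genes was not tested.

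**Figure D4:**
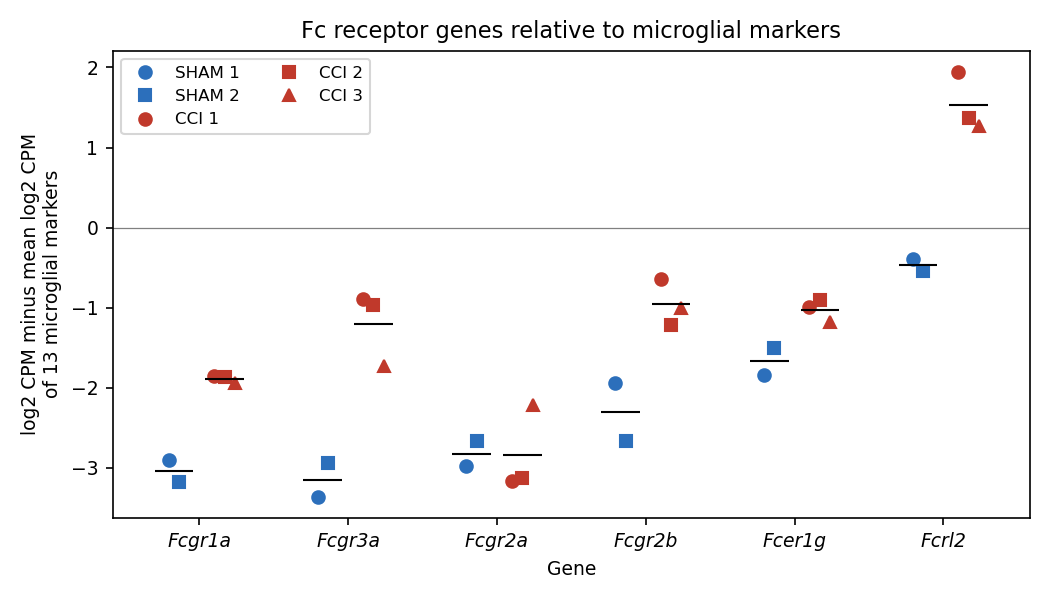
Log2 CPM of each gene minus the mean log2 CPM of 13 microglial markers in the same library, 1 point per library, with black bars at the group means. Fcrl2 lies below the marker mean in SHAM (-0.47) and above it in CCI (1.52), and the Fcgr2a means are -2.82 in SHAM and -2.84 in CCI.

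Markers of other immune cells were mostly scarce. All 9 monocyte and neutrophil markers in the table had some count and none had enough to be tested; they summed to 0.463 to 5.64 CPM in CCI and 0.250 to 0.682 CPM in SHAM, with the highest sum in CCI 2. B and plasma cell markers summed to 0.972 to 2.82 CPM in CCI and 1.50 to 1.64 CPM in SHAM over 8 genes. Mast cell and basophil markers summed to 0.159 to 0.555 CPM in CCI and 0.550 to 0.818 CPM in SHAM over 7 genes, with Mcpt1 at 0 throughout. T and NK cell markers summed to 62.3 to 100.1 CPM in CCI and 54.9 to 76.7 CPM in SHAM over 10 genes, of which Ncr1 alone gave 54.0 to 85.2 CPM and 48.7 to 67.9 CPM, while Cd3e had none in CCI 1 and in SHAM and 2.22 and 0.477 CPM in CCI 2 and CCI 3. Ncr1 and Prf1, another of these markers, had fractional counts in all 5 libraries. Of 6 border macrophage markers none was called by edgeR or DESeq2 (0 at an unadjusted p under 0.05 in edgeR), and 1 was called without CCI 1. Their log2 fold changes ran from -0.10 for Lyve1 to 1.66 for Mrc1, with a median of 0.80. Mrc1 stood at 5.74, 20.2 and 21.6 CPM in CCI 1 to 3, against 3.64 and 6.40 CPM in SHAM. Lyve1 stood at 13.9, 15.7 and 24.6 CPM in CCI 1 to 3, against 19.9 and 18.7 CPM in SHAM.

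Genes with the most similar course over the 5 libraries were sought among 12754 genes of at least 1 CPM, by the root mean square difference of centred log2 CPM. Nearest to Fcgr1a were Tifab (0.10), Vav1 (0.10) and Csf3r (0.12), and to Fcer1g were Cd180 (0.08), Tspo (0.10) and Tmem176b (0.10). Fcgr2b was nearest to Tifab (0.19), Cd4 (0.21) and C3 (0.21). Fcgr3a was nearest to Ncf4 (0.17), Gpr65 (0.23) and C1qc (0.23), and Fcrl2 to C1qc (0.19), Ncf4 (0.20) and Mefv (0.23). Fcgr2a had other neighbours: Pmp2, a peripheral myelin gene (0.11), Fn1, the fibronectin gene (0.13), and Aebp1 (0.16). Its estimated count in CCI 3, where reads were also shared with Fcgr2b, enters these distances. The difference between CCI and SHAM, known when the 6 genes were chosen, enters the distances of every gene. Whether neighbours share a cell source was not tested. Among the 6 genes themselves, Fcgr1a and Fcgr2b were the closest pair (0.25) and Fcgr2a and Fcgr3a the farthest apart (1.15).

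None of the other Fc receptor genes tested was called. Of 18 listed, 13 were in the table and 10 had enough counts, with 0 calls by edgeR's quasi-likelihood test, DESeq2, limma-voom and the likelihood ratio test, with 3 higher and none lower at an unadjusted p under 0.05 and a median log2 fold change of 0.34. The quasi-likelihood test called 2.59% of all tested genes higher, and the median of all tested genes was 0.01. Fcgrt, which encodes the neonatal Fc receptor that recycles IgG, was 39.0 ± 2.16 CPM (SD, n = 3) after CCI against 28.2 ± 0.506 CPM (SD, n = 2) after SHAM (log2 fold change 0.47, SE 0.11, edgeR adjusted p = 0.0575). LOC498276 had a log2 fold change of 0.73 (SE 0.21, edgeR adjusted p = 0.128), and without CCI 1 it was called, at 0.87. Whether these genes differ less than the 6 above was not tested. Fcer1a, the IgE-binding chain of mast cells and basophils, was listed at 0 in all 5 libraries, where 3 counts would be 0.119 to 0.159 CPM.

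Little can be said of ligands. The table held 3 of 18 listed genes for immunoglobulin chains and for the pentraxins, soluble proteins that Fc receptors also bind; immunoglobulin genes were not analysed here. Of these only Ptx3, the long pentraxin gene, had enough counts, at 247, 65, 72, 44 and 31 in CCI 1 to 3 and SHAM 1 and 2. CCI 1 was far above the other CCI libraries. Its log2 fold change of 1.74 (SE 0.72) was not called (edgeR adjusted p = 0.326), whereas in the fit of CCI 1 with SHAM alone, where the spread comes from SHAM only, it was 2.67 and called.

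The activating cascade downstream of the ITAM rose in part. Of 34 tested genes 15 rose and none fell by edgeR's quasi-likelihood test, where 2.59% of all tested genes were called higher. At an unadjusted p under 0.05 of that test 20 were higher and 1 lower. The median log2 fold change was 0.65, against 0.01 over all tested genes. DESeq2 called 16 higher and none lower. The 3 with the smallest p were Vav1, a guanine nucleotide exchange factor of blood cells (12.7 ± 1.56 against 2.41 ± 0.262 CPM; SD, n = 3 and n = 2), Pik3ap1, an adaptor for PI3-kinase (16.2 ± 1.14 against 5.46 ± 0.308 CPM), and Fgr, a Src-family kinase of myeloid cells (11.1 ± 1.95 against 2.52 ± 0.0340 CPM). Their log2 fold changes were 2.39 (edgeR adjusted p = 0.0006) for Vav1, 1.57 (0.00127) for Pik3ap1 and 2.13 (0.00146) for Fgr. Tyrobp, the other ITAM adaptor of myeloid cells, rose by 1.90 and the kinase gene Lyn by 1.57. Syk itself, the kinase that docks on the phosphorylated ITAM, was 26.3 CPM in CCI and 14.4 CPM in SHAM and was not called (log2 fold change 0.87, SE 0.20, edgeR adjusted p = 0.0677), though DESeq2, the likelihood ratio test, scaling by library size alone and the fit without CCI 1 called it. Src, Fyn and Yes1, the widely expressed kinases of the same family, had log2 fold changes of 0.04, -0.08 and 0.02 and were not called. In the same list Tec (0.58) and Zap70 (0.26) were not called either, while Prkcd (0.60) was called. Without CCI 3 the Prkcd value was 0.54, below the 1.5-fold rule, and the call was lost. With CCI 1 as the only CCI library it was 0.48. Prkcd had fractional counts in all 5 libraries. Without SHAM 1 the number called was 4 and without SHAM 2 it was 6, and Vav1, Pik3ap1 and Fgr were called in both.

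On the inhibitory side 3 of 14 tested genes rose and none fell by edgeR's quasi-likelihood test, where 2.59% of all tested genes were called higher. At an unadjusted p under 0.05 of that test 8 were higher and none lower, and DESeq2 called 3 higher and none lower. The median log2 fold change was 0.74, against 0.01 over all tested genes. Inpp5d, the lipid phosphatase SHIP that Fcgr2b recruits, was 37.8 ± 4.85 CPM (SD, n = 3) after CCI against 14.4 ± 0.0815 CPM (SD, n = 2) after SHAM (log2 fold change 1.39, SE 0.14, edgeR adjusted p = 0.00139). Ptpn6, the phosphatase SHP-1 of blood cells, rose by 2.05 (SE 0.24, edgeR adjusted p = 0.00432) and Dok3, an adaptor, by 1.95 (SE 0.30, edgeR adjusted p = 0.00946). Inppl1 and Ptpn11, the widely expressed relatives of Inpp5d and Ptpn6, had log2 fold changes of -0.01 and -0.17 and were not called. Dok1 (0.86), Dok2 (1.16) and Ptpn22 (2.56) were not called either. When SHAM 1 or SHAM 2 was left out, 1 gene was called, and it was Inpp5d each time.

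Genes of engulfment, the actin and oxidase machinery that works below Fc receptors, also rose in part. Of 38 tested, 14 rose and none fell by edgeR's quasi-likelihood test, where 2.59% of all tested genes were called higher. At an unadjusted p under 0.05 of that test 20 were higher and 2 lower, and DESeq2 called 15 higher and none lower. The median log2 fold change was 0.27, against 0.01 over all tested genes. The 4 with the smallest p were Fermt3, an integrin activator (2.05, SE 0.20, edgeR adjusted p = 0.00122), Myo1f, an unconventional myosin (1.93, SE 0.20, edgeR adjusted p = 0.00173), Nckap1l, the blood-cell subunit of the WAVE complex (1.94, SE 0.20, edgeR adjusted p = 0.00205), and Ncf4, an oxidase subunit (3.09, SE 0.37, edgeR adjusted p = 0.00266). Ncf4 rested on 11 and 13 counts in SHAM, and Fermt3 had fractional counts in all 5 libraries. Rac2, the GTPase of blood cells, rose by 2.87 (SE 0.44, edgeR adjusted p = 0.0256), a call lost when libraries were scaled by size alone. The widely expressed Rac1 and Cdc42 had log2 fold changes of 0.23 and 0.11 and were not called. Coro1a, at 1.27, was not called by edgeR's quasi-likelihood test (adjusted p = 0.179), while Marcks, at 0.74, was. Both calls changed with the setting. DESeq2, the likelihood ratio test and the fits without CCI 2 or without CCI 3 called Coro1a, and Marcks lost its call without CCI 3. With CCI 1 as the only CCI library, the log2 fold change was 1.17 for Coro1a and 0.45 for Marcks. Such contrasts within the activating, inhibitory and engulfment lists were picked after the values were seen. Whether blood-cell genes differed from widely expressed ones was not tested. Without SHAM 1 the number called was 1 (Fermt3) and without SHAM 2 it was 2 (Fermt3 among them). In the fit of CCI 1 with SHAM alone, whose spread comes from the SHAM libraries, 13 of 33 activating, 4 of 13 inhibitory and 13 of 38 engulfment genes tested were called higher, where 2.73% of all genes were.

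**Figure D5:**
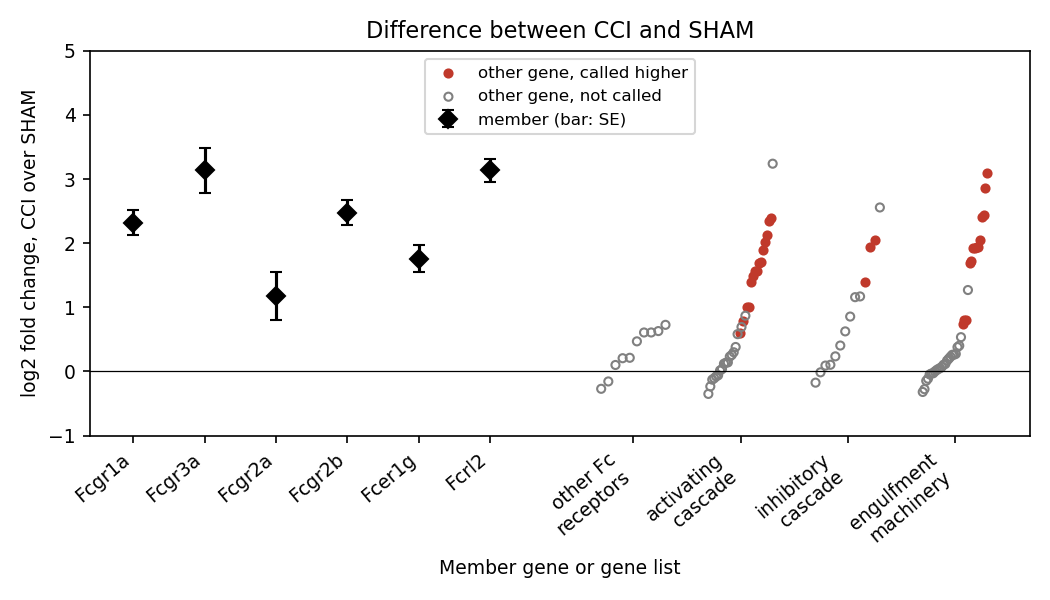
Log2 fold change of CCI over SHAM: black diamonds with SE bars for the 6 genes, and 1 point for each tested gene of 4 lists (red called higher, open not called), in order of value within a list. None of the 10 other Fc receptor genes is called, against 15 of 34 in the activating cascade, 3 of 14 in the inhibitory cascade and 14 of 38 in the engulfment list; both Fcrl2 and Fcgr3a lie above 3.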

How the data were processed

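Total RNA of 5 dorsal horn libraries (3 CCI, 2 SHAM, grouped by the treatment label) was sequenced by the authors. The deposited counts are estimated counts, 1 row per symbol; per the submitters' processing notes, kallisto 0.44.0 and rn6 were used. The second deposited table is named TPM but holds a signal scaled by trimmed mean of M-values (TMM) per the series' design text, so column totals differ. The annotation used is not given in the sources used for this text.

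Counts were rounded; 13478 of 17321 genes passed edgeR's filterByExpr (minimum count 10). They were fitted with edgeR 4.0.16 in R 4.3.3 (TMM, robust glmQLFit, glmQLFTest, two-sided, 3 residual degrees of freedom), and p-values were Benjamini-Hochberg adjusted over the whole table. SE is the log2 fold change over the root of F. Estimated counts were fractional in 20.5% of tested rows. At 20053353 to 23673198 counts per library, genes near 1 CPM rest on few reads.

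On simulated data for the CCI and SHAM comparison (13393 genes), 43.3% of genes changed by 1.5-fold were called, 74.6% by 2-fold and 98.5% by 4-fold, with 7 unchanged genes called. Members, lists and tests were chosen with earlier results of these data known. Named genes are the members, the 3 nearest genes of each, and from each list up to 4 called by smallest p in each direction, or 2 uncalled where none was; other named genes were chosen after their values were seen. Some genes selected this way are not reported here. As alternatives, DESeq2 1.42.0, limma-voom (limma 3.58.1), the likelihood ratio test, other scalings and filters, the signal table on the log2 scale (pseudocounts 0.5 and 0.1), leaving out libraries, and summed Fcgr rows were tried. Alternatives added after seeing the data left out CCI 2 and CCI 3 together, or the ribosomal rows, or summed Fcgr2a with LOC498276. Gene names and promoter windows are from RefSeq (GRCr8). Figures used matplotlib 3.10.9.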

Additional observations from a re-analysis of the deposited data

How the results depend on the processing

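No paired analysis was run because the labels name no pairing or batch. Over the whole table, 349 higher and 35 lower became 571 and 75 with the likelihood ratio test and 545 and 69 with DESeq2, and 56 were lower with scaling by library size alone. Leaving out 1 library at a time, the range was 61 to 644 higher and 0 to 119 lower over all genes, and 3 to 5 higher among the 6 Fc receptor genes. It was 0 to 1 among other Fc receptors, 4 to 16 in the activating cascade, 1 to 4 in the inhibitory cascade and 1 to 15 in engulfment, with the lowest values of these last 3 without a SHAM library; the lone SHAM library was then assumed to vary like the CCI libraries. With CCI 2 and CCI 3 left out, 1 ligand gene was called. No setting reversed the sign for any of the 6 genes. Over 17 alternatives that keep the rows apart, the log2 fold change ran from 2.14 to 2.37 for Fcgr1a, 0.63 to 1.48 for Fcgr2a, 2.24 to 2.74 for Fcgr2b, 2.82 to 3.51 for Fcgr3a, 1.49 to 2.07 for Fcer1g and 2.98 to 3.40 for Fcrl2. By CPM, which is not per length, Fcgr2b took place 2, Fcer1g 3 and Fcgr3a 4 of 6 in CCI; in SHAM, Fcrl2 took place 1, Fcer1g 2, Fcgr2a 4, Fcgr1a 5 and Fcgr3a 6. Depth limits the SHAM values most, since Fcgr3a rests on 38 and 56 counts there.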
